A study of Mus musculus with 14 samples.

Results

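Myo10, Nol10, Plbd1, Fam47e and Gdpd3 are 5 of the 20638 mouse genes counted in full-grown, germinal vesicle (GV)-intact oocytes, the fully grown egg cells still arrested in prophase of meiosis I. They were selected on a readout: the change in Ago2 ADH oocytes against Ago2 fl/fl oocytes differed from the change in Dicer KO oocytes against Dicer WT oocytes. For that reason the levels in those 4 groups, and the difference between the 2 changes, are given here as a description with no test. A transcript ID stood for a gene where it had the highest mean count, and the 5 genes had 6 of the 26495 transcript IDs, since Fam47e had 2.

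The oocytes came from females of 4 to 6 weeks primed with equine chorionic gonadotropin (5 IU, 48 h ahead of collection), and each library held 20 oocytes, which the methods give as coming from 3 or 4 animals of a genotype. Ago2 fl/fl (3 libraries) carried floxed Ago2 alleles and served as the wild type for Ago2. Ago2 ADH (3 libraries) was Ago2 fl/ADH; Cre/+, in which Cre driven by the Zp3 promoter removed the floxed allele in growing oocytes and left 1 allele encoding a catalytically inactive AGO2. Ago2 null (2 libraries) arose from the same crosses. Dicer WT (3 libraries) and Dicer KO (3 libraries) were wild-type oocytes and oocytes with an oocyte-specific loss of Dicer, from mice bred apart from the Ago2 crosses. Zp3-driven Cre acts only once oocytes grow, so transcripts and protein made earlier can persist, and a pool of 20 oocytes gives no value for a single animal.

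As background, DICER cuts double-stranded RNA and microRNA precursors into small RNAs of the endogenous siRNA and miRNA classes. AGO2 binds these small RNAs and is the Argonaute protein that cuts a matching target, which in mouse oocytes is chiefly the work of endogenous siRNAs. Per the paper, miRNA activity falls as oocytes grow and is suppressed once they are full-grown. The 5 genes have no common function. Myo10 encodes myosin X, the motor that moves to the tips of filopodia. Nol10 encodes a nucleolar protein of the small subunit processome, which assembles the small ribosomal subunit. Plbd1 encodes a phospholipase B-like hydrolase of the lysosome. Gdpd3 encodes a glycerophosphodiesterase that releases lysophosphatidic acid from lysophospholipids. Fam47e encodes a little studied protein that has been linked to the arginine methyltransferase PRMT5.

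The DNA before the annotated start of 3 of the genes is shown because Plbd1 had the largest change in Dicer KO oocytes, Gdpd3 was the sole member that was lower there, and Fam47e had the lowest level in Ago2 ADH oocytes relative to their controls. The windows are RefSeq promoter sequences of build GRCm38.p6, 5′ to 3′ on the strand of the gene, cut back so that they hold no base of a GENCODE exon. Capitals mark matches to CAGGTG, an E-box, on either strand.
Plbd1 (chr6:136661929-136662143, minus strand): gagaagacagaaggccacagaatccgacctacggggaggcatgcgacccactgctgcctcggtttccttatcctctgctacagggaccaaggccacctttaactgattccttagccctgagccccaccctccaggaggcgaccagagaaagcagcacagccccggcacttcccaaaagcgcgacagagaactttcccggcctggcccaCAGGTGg
Fam47e (chr5:92571287-92571476, plus strand): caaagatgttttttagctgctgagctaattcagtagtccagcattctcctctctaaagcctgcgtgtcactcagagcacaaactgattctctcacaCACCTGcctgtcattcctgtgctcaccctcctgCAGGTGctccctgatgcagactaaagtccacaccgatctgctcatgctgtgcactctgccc
Gdpd3 (chr7:126766164-126766333, plus strand): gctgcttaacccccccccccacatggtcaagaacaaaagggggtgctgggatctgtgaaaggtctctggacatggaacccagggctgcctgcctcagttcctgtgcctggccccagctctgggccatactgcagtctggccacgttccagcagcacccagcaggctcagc

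The short motifs TATAAA (the TATA box), CCAAT (the CCAAT box), GGGCGG (a GC box), CAGGTG (an E-box) and TAATTG (a homeodomain core) were looked for on both strands in the 250 bases before each annotated start. CAGGTG was found before Plbd1, at 42 bases from the start, and before the downstream Fam47e start, at 154 and 121 bases; the GENCODE transcripts paired with both counted IDs begin at or just after that start. It was present in 17.2% of all 32851 RefSeq promoters. GGGCGG, present in 32.7% of promoters, was found before Myo10 and Nol10, and CCAAT, present in 33.8%, before Myo10 and before the upstream Fam47e start. TATAAA, present in 12.4%, was found before that Fam47e start and before a downstream Myo10 start. The Gdpd3 window had no match to any of these. A match in so short a motif is a description of the sequence and not a binding site. The Fam47e window lies inside an intron of Fam47e transcripts that begin at an upstream start, and the RefSeq interval of Plbd1 extends beyond its window.

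Nol10 hosts a miRNA gene, Mir3066, on its own strand on chromosome 12, and the mature miRNAs overlap no Nol10 exon in GENCODE. They are shown since Dicer makes miRNAs, with the seed (bases 2 to 8) in capitals and the sequences as RefSeq gives them.
mmu-miR-3066-5p (chr12:17355404-17355425, plus strand): uUGGUUGCuguagauuaaguag
mmu-miR-3066-3p (chr12:17355441-17355462, plus strand): cACUUAAUagaccgcaaccugc
The seeds of the 2 differ. No small RNA was measured here, so the position is all that is given.

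Total counts on transcripts ranged from 29380403 to 58285057 per library, so that 3 counts, the limit that a count of 0 allows, came to between 0.0515 and 0.102 CPM (the count of a transcript scaled to a library total of 1e6). Such limits cover counting error only. Levels are given as CPM scaled by edgeR's TMM factors over all 14 libraries. Per the methods, oocytes were collected anew for each replicate, so p-values measure the spread between separately collected pools. Ago2 was at 24.0 to 25.5 CPM in Ago2 fl/fl, 12.4 to 13.7 in Ago2 ADH and 5.30 to 7.17 in Ago2 null libraries. Dicer1 was higher in the libraries labelled Dicer KO (1679 to 1943 CPM) than in those labelled Dicer WT (745 to 779 CPM). Because these are counts over whole transcripts, which do not show the deleted exons, they do not check the Dicer label. All 15 oocyte markers were detected in every group, at a summed 12911 to 19898 CPM. Granulosa and cumulus markers summed to 60.1 to 105 CPM, and Cyp19a1 and Nr5a2 made up most of that sum.

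Myo10 (NM_019472, chromosome 15, 25622550 to 25813673 in GRCm38) had the highest CPM of the 5 in every group. Its level was 399, 395 and 389 CPM in the Ago2 fl/fl libraries and 326, 312 and 331 CPM in the Ago2 ADH libraries. In Dicer WT it was 91.5, 102 and 85.5 CPM, and in Dicer KO 353, 349.8 and 358 CPM. The groups overlapped in neither comparison: Ago2 ADH lay below its controls and Dicer KO above its own. On the log2 scale the change was -0.24 (SE 0.046) in Ago2 ADH, a fold of 0.847 (95% interval 0.792 to 0.905), and 1.92 (SE 0.069) in Dicer KO, a fold of 3.79 (3.43 to 4.19). The Ago2 ADH change was small beside that in Dicer KO. The Dicer WT level was lower than that of each other group, and the mean in Dicer KO was 0.897 times the mean in Ago2 fl/fl.

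Nol10 (NM_001008421, chromosome 12, 17348421 to 17430095) had the same directions. It was at 81.3, 81.8 and 69.99 CPM in Ago2 fl/fl, and at 62.6, 61.8 and 62.5 CPM in Ago2 ADH libraries. Dicer WT libraries held 49.8, 51.9 and 54.5 CPM and Dicer KO libraries 163, 168 and 149 CPM. Neither pair of groups overlapped, although the third Ago2 fl/fl library lay closer to Ago2 ADH than to the other controls. The log2 change was -0.27 (SE 0.064) in Ago2 ADH and 1.62 (SE 0.069) in Dicer KO, folds of 0.828 (0.754 to 0.910) and 3.07 (2.77 to 3.39).

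Plbd1 (NM_025806, chromosome 6, 136612071 to 136662303) had the greatest change of the 5, and had it in Dicer KO oocytes. Raw counts in Ago2 fl/fl were 80, 75 and 121, in Ago2 ADH 114, 64 and 82, and in Ago2 null 122 and 92. In Dicer WT they were 276, 216 and 151, against 7610, 6824 and 8639 in Dicer KO. The 3 Ago2 genotypes overlapped one another, and every Dicer KO library was far above every other library. As CPM, the means were 1.65 ± 0.57 (SD, n = 3) in Ago2 fl/fl, 1.71 ± 0.48 (n = 3) in Ago2 ADH, 5.37 ± 1.77 (n = 3) in Dicer WT and 246 ± 2.59 (n = 3) in Dicer KO. The fold in Dicer KO was 45.8 (95% interval 37.3 to 56.2, log2 change 5.52, SE 0.14), whereas the fold in Ago2 ADH was 1.08 (0.703 to 1.65, log2 change 0.11, SE 0.29). At 64 to 121 counts in these Ago2 fl/fl and Ago2 ADH libraries, an Ago2 ADH change within that interval was not detectable.

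Fam47e (NM_001033478, chromosome 5, 92554960 to 92591285) was lower in Ago2 ADH and higher in Dicer KO, by amounts that were closer in size. Its levels were 10.4, 13.2 and 13.7 CPM in Ago2 fl/fl and 6.53, 5.72 and 4.86 CPM in Ago2 ADH. They were 7.55, 7.37 and 6.41 CPM in Dicer WT and 28.8, 25.3 and 25.4 CPM in Dicer KO. No library of a mutant group lay within the range of its controls. The fold was 0.475 (95% interval 0.389 to 0.582) in Ago2 ADH, a log2 change of -1.07 (SE 0.14), and 3.72 (3.12 to 4.44) in Dicer KO, a log2 change of 1.90 (SE 0.12). The other Fam47e transcript, NM_001170571, had raw counts from 201 to 853 per library against 210 to 891 for the first, and log2 changes of -1.08 and 1.98. Since the 2 transcripts share most of their reads, they are not separate evidence.

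Gdpd3 (NM_024228, chromosome 7, 126766414 to 126775645) had the opposite directions to Myo10, Nol10 and Fam47e. It was at 4.30, 3.31 and 3.20 CPM in Ago2 fl/fl and at 7.79, 9.69 and 7.91 CPM in Ago2 ADH. The Dicer WT libraries held 15.2, 22.1 and 15.3 CPM and the Dicer KO libraries 5.76, 4.62 and 4.97 CPM. Groups did not overlap, Ago2 ADH being above its controls and Dicer KO below its own. The fold was 2.42 (1.95 to 3.02; log2 change 1.28, SE 0.15) in Ago2 ADH and 0.291 (0.228 to 0.371; log2 change -1.78, SE 0.17) in Dicer KO. Gm9967, a transcript on the opposite strand, overlaps Gdpd3, and 14.4% of the 36-base and 13.3% of the 50-base windows of the Gdpd3 transcript lie in it. The counting ignored strand, so reads from the 2 cannot be told apart there, and Gm9967 was not analysed here.

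**Figure D1:**
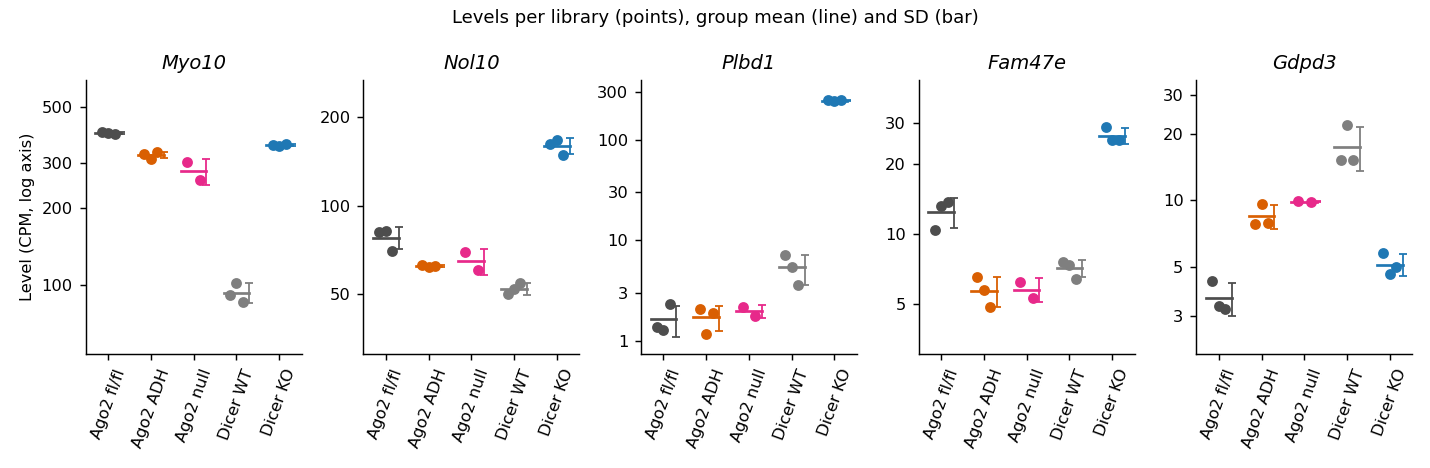
Level of each gene in each library, in CPM on log axes whose ranges differ between panels, with points for libraries, a line for the group mean and a bar for the SD (n = 3, or 2 for Ago2 null). Plbd1 lay between 243 and 247 CPM in the 3 Dicer KO libraries and at 7.14 CPM or less in all others, and Gdpd3 was the one gene that was lower in Dicer KO than in Dicer WT.

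Of the 5 members, 3 lay lower in Ago2 ADH than in Ago2 fl/fl without overlap and 1 higher. In Dicer KO against Dicer WT, 4 lay higher without overlap and 1 lower. The share of all transcripts without such overlap was not computed, so these counts have no like share beside them. By another measure, edgeR calls at an FDR of 1%, 20.1% and 20.5% of 18835 transcripts were lower and higher in Ago2 ADH. In Dicer KO, 16.7% and 17.8% of 18570 transcripts were called higher and lower. A looser measure, an unadjusted p below 0.05 by edgeR, held for 10802 of 18835 transcripts in Ago2 ADH and 9722 of 18570 in Dicer KO. These contrasts chose the members, so nothing is read from the counts of members. The difference between the Ago2 ADH and the Dicer KO log2 changes was -2.21 for Myo10, -1.94 for Nol10, -5.46 for Plbd1, -3.02 for Fam47e and 3.01 for Gdpd3. Across all transcripts, 3.55% of 19500 were called for that difference.

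**Figure D2:**
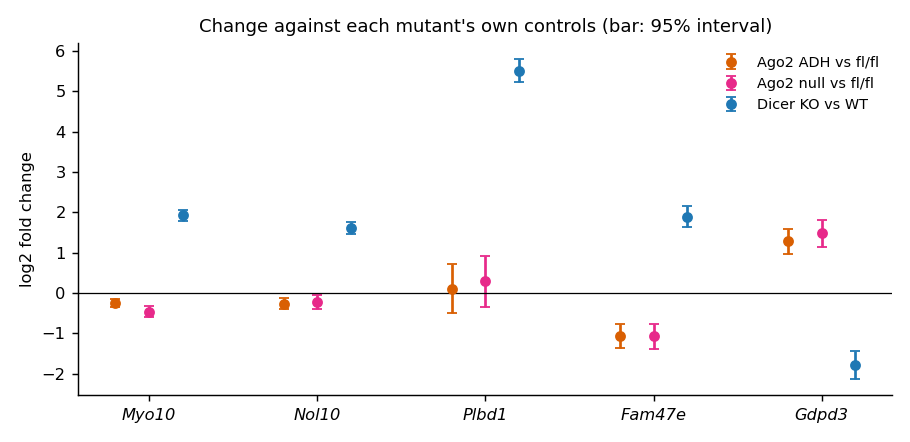
Log2 fold change of each gene in Ago2 ADH and Ago2 null oocytes, both against Ago2 fl/fl, and in Dicer KO oocytes against Dicer WT, with 95% intervals from the edgeR fits. The 2 Ago2 mutants, which share their controls, lay on the same side of 0 for Myo10, Nol10, Fam47e and Gdpd3, with Myo10 at -0.24 in Ago2 ADH and -0.46 in Ago2 null. For Plbd1 the intervals of both Ago2 mutants spanned 0. The Dicer KO values lay on the other side of 0 for every gene but Plbd1.

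Over all transcripts, 44 of 35 genes were called lower in Ago2 ADH and higher in Dicer KO, and 16 of 10 genes the reverse (edgeR, FDR of 1% in each comparison). Ranked by the size of the difference among the 10349 genes with a mean of at least 100 counts, Plbd1 was number 2, Fam47e 5, Gdpd3 6, Myo10 18 and Nol10 29. Among all 14530 genes tested the ranks were 10, 94, 96, 241 and 339 in the same order. The rule sets no threshold on size, so there are no members just inside one.

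**Figure D3:**
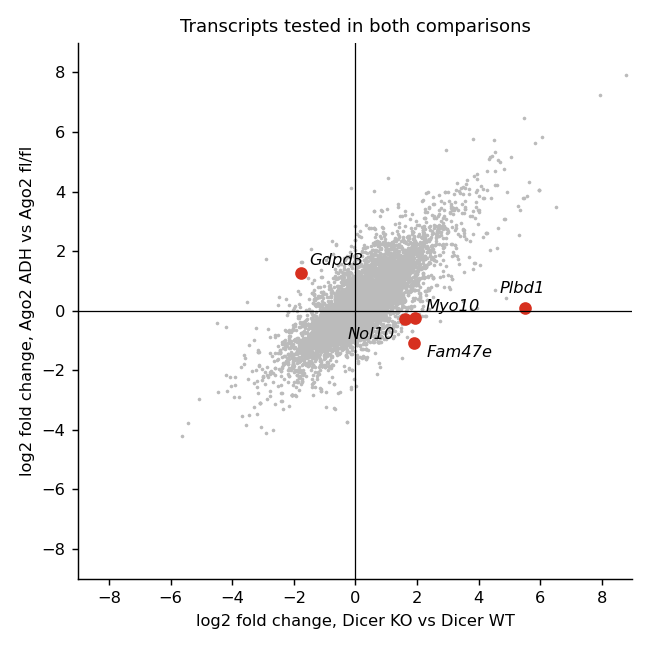
Log2 fold change in Ago2 ADH (vertical axis) against that in Dicer KO (horizontal axis) for the 18001 transcripts tested in both, in grey, of which 3 lie outside the axes, with the 5 genes in red. Myo10, Nol10 and Fam47e lie in the lower right quadrant, Gdpd3 in the upper left, and Plbd1 on the horizontal axis at 5.52.

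The Ago2 null libraries were not used to choose the members, although the Ago2 fl/fl libraries they are compared with were. In Ago2 null oocytes Myo10 was at 302 and 257 CPM, below each Ago2 fl/fl library, and its log2 change was -0.46 (SE 0.066, adjusted p = 2.1e-05, quasi-likelihood test of edgeR, adjusted by Benjamini-Hochberg over all transcripts). Fam47e was at 6.24 and 5.28 CPM and also fell, by 1.08 on the log2 scale (SE 0.15, adjusted p = 1.7e-05 from the same edgeR test). Gdpd3 rose, at 9.90 and 9.87 CPM in both libraries, with a log2 change of 1.49 (SE 0.16, adjusted p = 7.9e-07, edgeR). Nol10 was at 69.4 and 60.1 CPM, just below the lowest control, and its log2 change of -0.23 (SE 0.083, adjusted p = 0.029, edgeR) missed the 1% FDR. Plbd1 was at 2.18 and 1.75 CPM, within the range of the controls, with a log2 change of 0.29 (95% interval -0.35 to 0.92, adjusted p = 0.45, edgeR).

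Thus 2 of the 5 were called lower in Ago2 null oocytes and 1 higher, where 19.1% and 18.1% of 19236 transcripts were called lower and higher. In the selection contrast each of the 3 had gone the same way, but the 2 comparisons share their control libraries. The comparison of Ago2 ADH with Ago2 null used Ago2 ADH libraries that had helped to choose the members. None of the 5 was called in it by edgeR or by DESeq2. Since 0.119% of 19306 transcripts were called there by edgeR, the lack of a call says little about the 5. Myo10 was the one member at an unadjusted p below 0.05. Its level was higher in Ago2 ADH by 0.21 (log2, 95% interval 0.056 to 0.35, adjusted p = 0.33, edgeR), and its groups did not overlap. The groups of Gdpd3 did not overlap either (7.79 to 9.69 CPM in Ago2 ADH, 9.87 to 9.90 in Ago2 null). The intervals of the Ago2 ADH against Ago2 null difference were -0.23 to 0.11 for Nol10, -0.81 to 0.41 for Plbd1, -0.37 to 0.35 for Fam47e and -0.52 to 0.065 for Gdpd3. As a fold, the interval for Plbd1 ran from 0.569 to 1.33, the widest of the 5.

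The control levels of the 2 experiments were unlike for all 5 genes. Dicer WT and Ago2 fl/fl come from different lines, and whether they were sequenced together is not given in the sources used here, so the levels are set side by side with no test. The mean in Ago2 fl/fl was 4.23 times that in Dicer WT for Myo10, 1.75 times for Fam47e and 1.49 times for Nol10, the 3 members with lower levels in Ago2 ADH. It was 0.307 times that in Dicer WT for Plbd1 and 0.205 times for Gdpd3. For Myo10 and Gdpd3 the gap between the controls was wider than the Dicer KO change itself. The Gdpd3 mean in Dicer KO was 1.42 times that in Ago2 fl/fl. By contrast the Plbd1 mean in Dicer KO was 149 times that in Ago2 fl/fl and thus larger against either control.

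Ordered by mean level, Myo10 ran from Ago2 fl/fl through Dicer KO, Ago2 ADH and Ago2 null to Dicer WT, and no neighbours in that order overlapped. Nol10 ran from Dicer KO through Ago2 fl/fl, Ago2 null and Ago2 ADH to Dicer WT, with overlap between the 2 Ago2 mutants. Fam47e ran from Dicer KO through Ago2 fl/fl and Dicer WT to Ago2 null and Ago2 ADH, which overlapped. For Gdpd3 the order was Dicer WT, Ago2 null, Ago2 ADH, Dicer KO and Ago2 fl/fl with no overlap of neighbours. Plbd1 fell from Dicer KO to Dicer WT and then to the 3 Ago2 genotypes, which overlapped.

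Per kilobase of transcript, where genes can be set against each other, the levels (CPM per kb) in Ago2 fl/fl were 48.5 ± 0.59 (SD, n = 3) for Myo10, 25.7 ± 2.21 for Nol10, 8.28 ± 1.20 for Fam47e, 3.14 ± 0.53 for Gdpd3 and 0.820 ± 0.28 for Plbd1. In Dicer KO Plbd1 was the highest of the 5, at 122 ± 1.29 (n = 3), above Nol10 at 53.0 ± 3.19 and Myo10 at 43.5 ± 0.50. In the 4 other groups Plbd1 was the lowest of the 5 per length.

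The deposited files also tally alignments left out because a read aligned to more than 1 place. Per 100 counts on transcripts this tally was 55.7 to 59.7 in Ago2 fl/fl, 158 to 166 in Ago2 ADH, 157 to 166 in Ago2 null, 38.8 to 53.6 in Dicer WT and 93.9 to 119 in Dicer KO libraries. It was higher in all 3 mutants than in their controls. The methods name reads of 36 and of 50 bases without saying which libraries had which. Of the 36-base windows of the transcripts, 2.81% of those of Nol10 also occurred in transcripts of other genes, which were 1265 in number, as did 0.0683% of those of Fam47e. None of those of Myo10 or Plbd1 did. At 50 bases the shares were 2.36% for Nol10 and 0 for Fam47e, Myo10 and Plbd1. The part of the tally in these results was not tested.

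Markers of other ovarian cells also differed between groups. The 19 granulosa and cumulus markers summed to 81.0 to 86.9 CPM in Ago2 fl/fl, 64.7 to 71.3 in Ago2 ADH, 60.1 to 62.7 in Ago2 null, 98.1 to 105 in Dicer WT and 83.5 to 88.3 in Dicer KO. The sum was lower in each mutant than in its controls, but Cyp19a1 and Nr5a2 made up most of it. It therefore does not speak for the whole list. The median log2 change of the tested markers was 0.096 in Ago2 ADH, -0.37 in Ago2 null and -0.15 in Dicer KO. Foxl2, a defining granulosa gene, was at 0 in every Ago2 fl/fl and Dicer WT library and at 0.0365 to 0.128 CPM in Ago2 ADH. It reached 0.0762 CPM in Ago2 null and 0.143 CPM in Dicer KO. Ptx3 was at 0 in every library outside Ago2 ADH. The 11 theca and stroma markers summed to 3.15 to 5.49 CPM outside Ago2 ADH and 4.90 to 11.4 CPM in it, and Lum was at 0 in all but the Dicer WT group. In this list Cyp11a1, a steroidogenic enzyme, was the sole gene called for the difference between the Ago2 ADH change and that in Dicer KO and higher in Ago2 ADH (1.73, SE 0.33) and lower in Dicer KO (-2.91, SE 0.52), at no more than 7.49 CPM. The 17 immune and blood markers summed to 5.33 to 7.69 CPM with S100a8 at 0 throughout, and 0 of the 4 or 5 tested were called in any of the 5 comparisons by edgeR or DESeq2, and at most 2 had an unadjusted p below 0.05. With so few tested, that count says little. The part of these markers in the members' values was not tested. In pools of whole oocytes, fewer contributing cells of a type and less RNA per cell cannot be told apart.

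The genes with the most similar pattern to each member were found by Pearson's r of log2(CPM + 1) over all 14 libraries, among genes with a mean of at least 100 counts. These r values describe points that share groups and depth and carry no test. For Myo10, Plxna1, a semaphorin receptor (r = 0.96), and Yipf3 (r = 0.95) were among the closest 3. Plxna1 resembled Myo10 in its lower Dicer WT level, at a mean of 63.3 CPM, against 76.5 to 85.9 CPM in the 4 other groups. Nol10 had Plekhg2 (r = 0.96), Mdc1, a scaffold of the DNA damage response (r = 0.94), and Rnf168, a ubiquitin ligase of the same response (r = 0.92). Rnf168 was also the gene closest to Fam47e (r = 0.97), with means of 192, 126, 130, 161 and 455 CPM in Ago2 fl/fl, in both Ago2 mutants (ADH first), in Dicer WT and in Dicer KO. It was followed there by Ccnl1 (r = 0.96) and Usp38 (r = 0.96).

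Plbd1 had Knl1, a kinetochore scaffold (r = 0.98), Fbxw28 (r = 0.97) and Gas2l3 (r = 0.97). None of these came near its size of change, for the means of Knl1 were 147 CPM in Dicer WT and 382 CPM in Dicer KO. Gdpd3 had the least close matches, Thap12 (r = 0.85), Pkib, an inhibitor of protein kinase A (r = 0.83), and the tetraspanin Cd9 (r = 0.83). Among the members themselves, Nol10 and Fam47e were closest (r = 0.91), and Myo10 and Gdpd3 were the most opposed (r = -0.86).

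To see whether the difference between mutants extended along the chromosome, the nearest 2 counted genes on each side of each member were examined. These 20 genes were not chosen on their values, and 18 had enough counts to be tested. Of the 18, 0 were called for the difference between the Ago2 ADH change and that in Dicer KO (edgeR, FDR of 1%), and DESeq2 also called 0. Over all transcripts edgeR called 3.55% of 19500, so a count of 0 among 18 says little. At an unadjusted p below 0.05 there were 6 of the 18 neighbours, beside 4550 of the 19500 transcripts. Mapk3, the kinase ERK1, whose end lies 0.598 kb before Gdpd3, came closest, with a difference of -0.30 (SE 0.080, adjusted p = 0.021, edgeR), against 3.01 for Gdpd3. Ypel3, 1.32 kb after Gdpd3, had a difference of -0.13 (SE 0.16, adjusted p = 0.69, edgeR).

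Next to Plbd1, Atf7ip, a chromatin factor whose gene ends 1.22 kb away, had a log2 change of -0.11 in Dicer KO (SE 0.067, adjusted p = 0.20, edgeR), where Plbd1 changed by 5.52. Gucy2c, a guanylyl cyclase 35.0 kb on the other side, rose in Dicer KO (0.81, SE 0.15, adjusted p = 2e-04, edgeR), and its difference between mutants did not pass (-0.63, SE 0.20, adjusted p = 0.054, edgeR). Beside Fam47e, Ccdc158 rose in Ago2 ADH, Ago2 null and Dicer KO alike (1.19, 1.04 and 1.38), and Stbd1, a starch-binding protein, fell in all 3 (-0.53, -0.57 and -0.46).

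Beside Myo10, Zfp622 rose in Ago2 ADH (2.86, SE 0.39) and in Ago2 null (2.93, SE 0.43), while its Dicer KO change was 0.34 (SE 0.65, adjusted p = 0.70, edgeR) at a mean of 49.6 counts. The difference was 2.47 (SE 0.85, adjusted p = 0.074, edgeR), and without the third Dicer KO library it was 3.68 (SE 0.82, adjusted p = 0.0050, edgeR). Beside Nol10, Odc1, the rate-limiting enzyme of polyamine synthesis, rose in both Ago2 mutants (0.38 and 0.51), and Pdia6, a protein disulphide isomerase, fell in Dicer KO (-0.50). In all, 4 of the neighbours were called higher and 4 lower in Ago2 ADH, 4 and 5 in Ago2 null, and 3 and 3 in Dicer KO. Among all transcripts the shares were 20.5% and 20.1% in Ago2 ADH, 18.1% and 19.1% in Ago2 null, and 16.7% and 17.8% in Dicer KO.

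**Figure D4:**
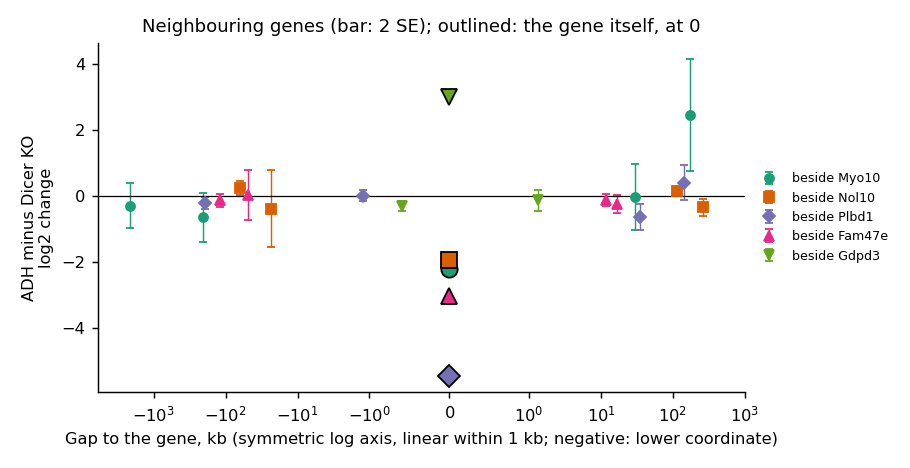
Difference between the Ago2 ADH and the Dicer KO log2 changes (vertical axis) for the 18 tested neighbours, by their gap to the gene in kb on a symmetric log axis, with bars of 2 SE; outlined symbols at 0 are the 5 genes themselves. The neighbours lay between -0.65 and 2.47, and the one above 1 is Zfp622, which had few counts.

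Genes that work with Myo10 were taken as other myosins and as partners in filopodia. Of 20 tested myosins, 4 were called higher and 4 lower in Ago2 ADH, and 6 and 5 in Dicer KO, and 6 of 21 were called lower and 4 higher in Ago2 null. Over all transcripts, 20.5% were called higher and 20.1% lower in Ago2 ADH, and 16.7% and 17.8% in Dicer KO. In Ago2 null the shares were 19.1% lower and 18.1% higher, and 3.55% were called for the difference between mutants. Some large shifts ran the same way in all 3 mutants: the non-muscle heavy chain Myh10 rose by 2.39, 2.31 and 1.91 (log2, in Ago2 ADH, Ago2 null and Dicer KO), Myo6, which moves to the minus end of actin filaments, rose by 1.35, 1.34 and 1.42, and Myo1e fell (-1.81, -2.11 and -1.74). The largest in Dicer KO was Myo5c, a vesicle motor, which rose by 2.08 (SE 0.51) at a mean of 24.7 counts, with -0.11 and -0.35 in Ago2 ADH and Ago2 null (adjusted p = 0.85 and 0.59, edgeR). For the difference that selected Myo10, edgeR called Myh10 alone among myosins, at 0.43 (SE 0.10), and DESeq2 called Myh10 and Myh9. The medians over the list were -0.017 in Ago2 ADH and 0.24 in Dicer KO, beside 0.0069 and -0.0044 over all transcripts.

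Among 22 filopodia and actin bundling partners, 9 were called higher and 1 lower in Ago2 ADH, 9 and 4 in Ago2 null, and 7 and 3 in Dicer KO. The shares over all transcripts were 20.5% and 20.1%, 18.1% and 19.1%, and 16.7% and 17.8%, with 3.55% called for the difference. Lcp1 (L-plastin), an actin bundler, rose in all 3 (2.77, 2.66 and 2.92), as did the formin Daam2 (1.98, 2.15 and 3.18) and Pls3 (T-plastin; 1.47, 1.42 and 1.16). The list's median was 0.62 in Ago2 ADH and 0.17 in Dicer KO. For the difference between mutants edgeR called the formin Fmnl2 (0.73, SE 0.11), and DESeq2 called Fmnl2 and the integrin Itgb1.

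Among 53 tested genes of the small subunit processome, to which Nol10 belongs, 7 were called higher and 5 lower in Ago2 ADH, 8 and 6 in Ago2 null, and 9 and 7 in Dicer KO, with medians of -0.0023, -0.0011 and 0.031. Shares over all transcripts were 20.5% and 20.1%, 18.1% and 19.1%, and 16.7% and 17.8%, with 3.55% called for the difference. Rrp36 (2.89, 2.92 and 3.27), Utp23 (2.65, 2.53 and 2.21) and the helicase Dhx37 (1.36, 1.68 and 1.52) rose in all 3. For the difference, edgeR called Utp15 (-0.59, SE 0.12) and Bysl (-0.58, SE 0.12), DESeq2 called 5 genes with these included, and both were higher in each mutant, less so in Ago2 ADH.

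The lysosomal genes, considered for Plbd1, had no member with a change of its size. Of 20 tested lipid hydrolases 2 were called higher and 4 lower in Ago2 ADH, 2 and 3 of 20 in Ago2 null, and 2 and 3 of 18 in Dicer KO. All transcripts gave shares of 20.5% and 20.1%, 18.1% and 19.1%, and 16.7% and 17.8%, with 3.55% called for the difference. Plbd2, the paralog of Plbd1, had log2 changes of -0.48 (SE 0.12, adjusted p = 0.0029, edgeR) in Ago2 ADH, -0.43 (SE 0.13, adjusted p = 0.012) in Ago2 null and -0.21 (SE 0.16, adjusted p = 0.28) in Dicer KO by edgeR. The beta-galactosidase Glb1 fell in all 3 mutants (-1.23, -1.22 and -1.03). For the difference edgeR called the cholesterol transporter Npc1 (-0.47, SE 0.090), and DESeq2 called Npc1 and the alpha-galactosidase Gla. Of the proteases and membrane proteins of the lysosome, 5 of 20 were called higher and 1 lower in Ago2 ADH, 2 and 1 of 20 in Ago2 null, and 3 and 1 of 16 in Dicer KO, with cathepsin L (Ctsl) higher in all 3 (1.38, 1.55 and 1.10) and Lamp2 lower (-0.95, -0.87 and -1.32). Of 21 tested for the difference, 0 were called by edgeR, and DESeq2 also called 0, with 4 at an unadjusted p below 0.05.

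The list for Gdpd3 held glycerophosphodiesterases and enzymes and receptors of lysophosphatidic acid. In Ago2 ADH 6 of 19 were called higher and 4 lower, in Ago2 null 6 and 3 of 20, and in Dicer KO 6 and 1 of 23. Shares over all transcripts were 20.5% and 20.1%, 18.1% and 19.1%, and 16.7% and 17.8%, with 3.55% called for the difference. Pla1a, a phospholipase specific for phosphatidylserine, rose in all 3 (3.38, 3.21 and 3.32), and Enpp2 (autotaxin), the secreted lysophospholipase D that makes lysophosphatidic acid, fell in all 3 (-1.29, -1.29 and -1.90). The paralog Gde1 rose as well (0.65, 0.69 and 1.07). Gdpd1 rose in Ago2 ADH and Ago2 null (0.26 and 0.28), with 0.18 (adjusted p = 0.014, edgeR) in Dicer KO, and Gdpd5, at a mean of 37.4 counts, passed in none. Gdpd4 rose in Dicer KO (3.99, SE 0.76, adjusted p = 0.00026, edgeR) at a mean of 7 counts, with a difference of -3.68 (SE 1.22, adjusted p = 0.062). For the list as a whole, 0 of the 23 genes tested for the difference were called by edgeR, with 0 also by DESeq2 and 6 at an unadjusted p below 0.05.

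Of the PRMT5 partners and arginine methyltransferases considered for Fam47e, 2 of 11 were called higher and 1 lower in Ago2 ADH, 3 and 1 of 12 in Ago2 null, and 2 and 1 of 11 in Dicer KO. All transcripts gave shares of 20.5% and 20.1%, 18.1% and 19.1%, and 16.7% and 17.8%, with 3.55% called for the difference. Prmt5 itself rose in each (0.49, 0.88 and 0.85), and so did Coprs, a PRMT5 cofactor (0.47, 0.63 and 0.48). Prmt7 was called for the difference (0.79, SE 0.18), and it fell in Dicer KO (-0.61, SE 0.14), with 0.24 (SE 0.12, adjusted p = 0.092, edgeR) in Ago2 ADH. Fam47e was lower in both Ago2 mutants, where Prmt5 was higher, and like Prmt5 was higher in Dicer KO.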

How the data were processed

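RNA from pools of 20 oocytes was amplified with the Ovation RNA-Seq System V2, and each library was counted by the authors. Per the labels, reads were aligned to mm10 with TopHat2 2.0.7 and counted with HTSeq 0.6.1. The deposited files hold raw counts per RefSeq transcript ID, with no normalization, and tallies that name no transcript, which were left out of library sizes. Of 26495 IDs, 26081 were paired with a symbol through RefSeq and 113 through GENCODE, and 301 were left without one.

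Counts were fitted with edgeR 4.0.16 in R 4.3.3 (TMM factors, filterByExpr with a minimum count of 10 and a total of 15, glmQLFit and glmQLFTest), using only the groups of each comparison, with the Benjamini-Hochberg FDR taken over all transcripts tested and calls at 1%. The Ago2 ADH change minus the Dicer KO change was an interaction term over 4 groups. The fit was tested on simulated data. Alternatives were DESeq2 1.42.0, RLE factors, other filters, 1 transcript per gene, 1 fit of all 14 libraries, each library left out and a replicate block.

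The members, gene lists and alternatives were chosen with earlier results of these data known. Genes named were the 5 members, their nearest 2 counted genes on each side, the 3 genes with the highest r to each member, up to 3 called genes per list with the largest changes, those called for the difference, and the paralogs Plbd2, Gdpd1, Gde1 and Gdpd5. One of the genes closest to Myo10 is not reported here. The methods state 3 Ago2 null libraries, and 2 were used here. Depth was 29380403 to 58285057 counts per library. No pair of libraries of a group agreed within sampling noise. Figures were drawn with matplotlib.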

Additional observations from a re-analysis of the deposited data

Results flagged for a closer look

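For 4 of the 5 genes every Ago2 ADH library moved one way from its controls and every Dicer KO library the other way. The Ago2 ADH change minus the Dicer KO change, on the log2 scale, was -2.215 for Myo10, -1.94 for Nol10, -3.02 for Fam47e and 3.006 for Gdpd3. This contrast chose the genes and was not tested, and the count of 4 follows largely from that choice. The share of all transcripts that separate in this way was not computed, so nothing is read from the count. Among the genes of the lists, the interaction term of edgeR differed from 0 at an FDR of 1% for Myh10 (0.4306) and Fmnl2 (0.7341) among actin genes, for Bysl (-0.5783) and Utp15 (-0.5891) in the processome, and for Npc1 (-0.4733) and Prmt7 (0.7944). Of these, Myh10, Bysl and Utp15 rose in both Ago2 ADH and Dicer KO oocytes, with unequal size. Among marker genes it differed for Zp3 (0.3722) and Ddx4 (0.6485), made in oocytes, and for Ptgs2 (-2.747) and Cyp11a1 (4.607), which are markers of granulosa and of theca and steroidogenic cells. In Ago2 null oocytes, against the same controls as Ago2 ADH, 0 of the 5 tested theca and stroma markers were called by edgeR or DESeq2, and 2 had an unadjusted p below 0.05. Over all transcripts edgeR called 18.1% higher and 19.1% lower there, so a count of 0 among 5 says little.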

How the results depend on the processing

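The 5 genes kept their direction in Ago2 ADH, Ago2 null and Dicer KO against their controls under every alternative run, except Plbd1 in Ago2 ADH. Its change there ranged from -0.071 to 0.42 as single libraries were left out. The Ago2 ADH and Dicer KO comparisons chose the genes, so a kept direction in refits of the same libraries adds no evidence. Against Ago2 fl/fl, 3 members were called in Ago2 null, also with any single Ago2 fl/fl library left out. Over all transcripts edgeR called 18.1% of 19236 higher and 19.1% lower there, and the Ago2 fl/fl libraries had helped to choose the members. Nol10 was called as well with no filter (adjusted p = 0.0089) and with all 14 libraries in 1 fit (0.0092), by edgeR. Without the first Ago2 null library its log2 change was -0.34. Between Ago2 ADH and Ago2 null, signs of small changes that were never called turned: Fam47e was at 0.085 with the replicate block, 0.083 without the third Ago2 ADH library and 0.12 without the first Ago2 null library, Plbd1 at 0.022 without the second Ago2 ADH library (-0.37 to 0.022 over single libraries left out, and -0.13 to 0.12 for Fam47e) and Nol10 at 0.056 without the first Ago2 null library. Where 1 Ago2 null library is left, it is assumed to vary as the other group does. Over all transcripts, the difference between mutants was called for 692 (DESeq2 1104), and for 439 to 913 with a library left out, the lowest without the first Ago2 ADH library. Ago2 ADH against Ago2 null gave 23 calls, 81 with DESeq2, 94 with no filter and 142 with the replicate block. With a library left out it gave 6 to 21, namely 6 without the second and 13 without the first Ago2 null library and 9 without the first Ago2 ADH library. Neighbours called for the difference numbered 0 to 1 with a library left out, the 1 being Zfp622. The cause was not tested. Replicate numbers did not pair the samples (correlations of same-numbered deviations from -0.16 to 0.070), and the replicate block gave 537 calls for the difference. Low counts, 64 to 122 per library, limit Plbd1 in the Ago2 genotypes.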
